A study of Mus musculus with 7 samples.

Results

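Cathepsins are proteases that break down proteins inside lysosomes, and cystatins are small proteins that block the cysteine cathepsins. Their 10 members described here are the cysteine cathepsins Ctsb, Ctsc, Ctsh, Ctsl and Ctsz, the serine carboxypeptidase Ctsa, the aspartic protease Ctsd, and the inhibitors Cst3, Cst6 and Cstb. They were taken by symbol from 18193 genes, and all 10 were measured, on 22 of the 34945 probe sets that carry a single gene symbol. They were chosen by the Ctsl levels, which separated the tumour types on these arrays, so every carcinoma and papilloma value below is a description and carries no test. The samples were mouse skin tumour cells sorted for the surface antigens CD34 and Epcam, from carcinomas (malignant, 4 arrays) and papillomas (benign, 3 arrays). All tumours were induced with the carcinogen DMBA and the promoting agent TPA. The sample descriptions put Nr2f2 before the tumour type without stating a genotype, strain or age, and 1 array of each type is titled GFP in place of a number, which the labels do not explain. Whether arrays came from separate animals is not stated either, so every p-value measures only the spread between these samples.

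Cathepsins are made as inactive precursors, sorted to lysosomes by their mannose 6-phosphate tags, and activated there at low pH. In skin and its tumours they are known for protein turnover, for processing of growth factors and antigens, and, when secreted, for cleavage of matrix proteins. Cystatins keep this activity in check, Cstb inside the cell and Cst3 and Cst6 outside it, and Cst6 is known as an inhibitor of Ctsl and legumain in the cornifying layers of the epidermis.

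Levels are RMA values on a log2 scale, where a difference of 1 is a doubling, and a gene's main probe set is its brightest. Array medians lay between 5.38 and 5.50, and no arrays held identical values. The keratinocyte markers had mean levels of 10.36 to 12.09 per array. The GFP arrays stood apart from the others. Endothelial markers averaged 10.83 and 10.86 in the GFP arrays and 5.42 to 5.90 in the untagged arrays, and fibroblast markers averaged 10.58 and 11.57 against 5.81 to 7.82. Macrophage and monocyte markers averaged 7.31 and 7.58 in the GFP arrays and 5.29 to 6.48 in the untagged arrays, and keratinocyte markers 10.36 and 10.50 against 11.43 to 12.09. The Gapdh control probe sets, whose 3' minus 5' difference grows as labelled RNA shortens, gave 3.19 in each GFP array and -0.04 to 0.06 in the untagged arrays. The tumour types are therefore also compared within the untagged arrays and within the GFP pair.

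Of the members, 6 had a RefSeq promoter window in the GRCm38.p6 table, with 7 windows in all, and Ctsb, Ctsh, Cst6 and Cstb had none. The 250 bases before each annotated start were searched for CACGTG, the core letters of the E-box to which the lysosomal regulator Tfeb binds, which read the same on both strands. The letters occurred in the windows of 3 members, Ctsd, Ctsl and Ctsa, whose sequences are shown because they share them. For Ctsd alone this window lies before the gene, at chr7:142387828-142388077 on the minus strand, and it is printed whole. For Ctsl the table's start lies inside the gene, and for Ctsa the letters precede the second annotated start, also inside the gene, so only the bases around the letters are printed, from chr13:64370739-64370768 on the minus strand and chr2:164833749-164833772 on the plus strand. Capitals mark CACGTG.
Ctsd: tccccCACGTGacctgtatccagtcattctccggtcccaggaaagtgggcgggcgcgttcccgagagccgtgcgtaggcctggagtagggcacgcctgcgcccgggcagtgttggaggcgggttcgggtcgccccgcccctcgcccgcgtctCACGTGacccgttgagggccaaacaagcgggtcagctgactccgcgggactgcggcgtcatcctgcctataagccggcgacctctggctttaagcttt
Ctsl: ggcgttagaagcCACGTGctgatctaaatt
Ctsa: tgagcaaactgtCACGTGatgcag
The letters begin 245 and 98 bases upstream of the Ctsd start, 236 bases upstream of the internal Ctsl start and 12 bases upstream of the internal Ctsa start. Among all 32851 windows of this length 6.02% held CACGTG. Of the 7 member windows 3 held them. The AP-1 letters TGAGTCA or, on the other strand, TGACTCA, known from promoters that respond to TPA, were in none of the 7 and in 4.46% of all. No match says only that these letters are not in the window.

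Across the tumour types, Ctsl, an endopeptidase with a broad range of substrates, was the only member whose carcinoma arrays all lay above the papilloma arrays. The gene lies at chr13:64361890-64370772 (GRCm38.p6). On its main probe set, 1451310_a_at, Ctsl had 12.04, 11.88 and 11.52 in carcinoma 1, 2 and 3 and 11.98 in carcinoma GFP, against 11.07 and 11.03 in papilloma 1 and 2 and 11.46 in papilloma GFP. The gap between the lowest carcinoma array, carcinoma 3, and the highest papilloma array, papilloma GFP, was 0.065. Carcinoma cells averaged 11.85 ± 0.23 and papilloma cells 11.19 ± 0.24 (SD over 4 and 3 arrays), and carcinoma was higher by 0.67 (SE 0.20), or 1.59-fold. The carcinoma arrays were higher by 0.76 among the untagged arrays, with a gap of 0.45 (3.47% of all genes had all untagged carcinoma arrays above), and by 0.52 within the GFP pair. In bulk samples, more cells of a type and more RNA per cell cannot be told apart. Arrays of carcinoma all lay above those of papilloma for 92 of 18193 genes (0.506%) and below them for 0.912%, and 46 of these 92 genes had a wider gap than Ctsl. Over all genes limma called 0 genes at an adjusted p of 0.05 in this comparison, and 112 genes (0.616%) had an unadjusted p under 0.05. Among all single-symbol probe sets, carcinoma lay wholly above papilloma for 0.578% and wholly below for 0.83%, and among the 22 of the members for 1 and 0. The other Ctsl probe set, 1457724_at, was dim, at 4.04 to 5.06 in carcinoma and 4.22 to 5.09 in papilloma arrays, and the tumour types overlapped on it (difference -0.19, SE 0.33).

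**Figure D1:**
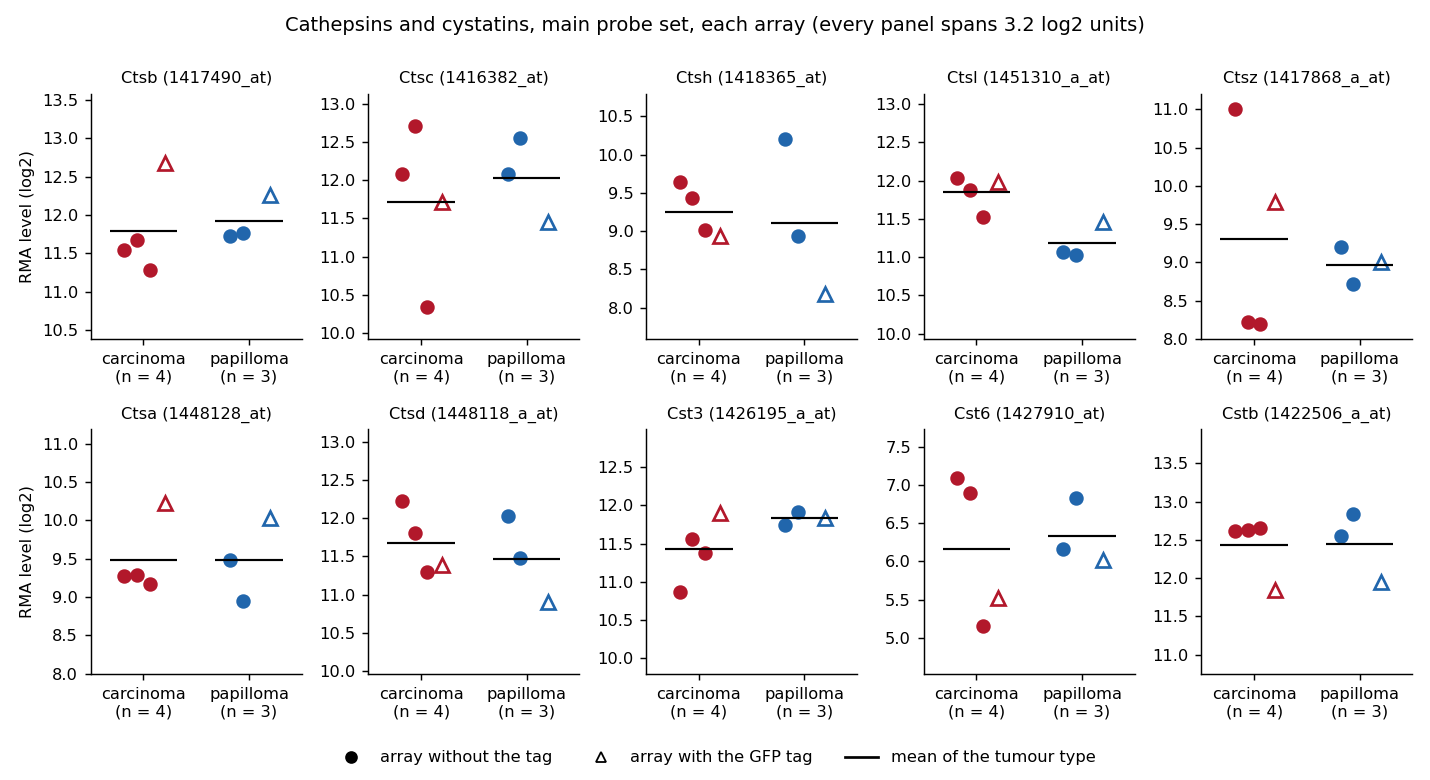
RMA level (log2, y axis) of each of the 10 genes on its main probe set in the 4 carcinoma and 3 papilloma arrays. Circles are untagged arrays, triangles the GFP arrays and lines the means. The Ctsl arrays of carcinoma, 11.52 to 12.04, lie above those of papilloma, 11.03 to 11.46, and the tumour types overlap for the other 9 genes.

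The other cysteine cathepsins overlapped between the tumour types and did not share a direction. Ctsb, an endopeptidase that also trims dipeptides from protein ends, had 11.54, 11.67 and 11.28 in carcinoma 1, 2 and 3 and 12.68 in carcinoma GFP, against 11.73, 11.76 and 12.26 in papilloma 1, 2 and GFP. Among the untagged arrays carcinoma lay wholly below papilloma, with a gap of 0.05 and a mean difference of -0.25. The share of all genes for which this held was not counted. Within the GFP pair carcinoma was higher by 0.42, and the mean difference over the 7 arrays was -0.12 (SE 0.36). Ctsc, or dipeptidyl peptidase 1, which activates the serine proteases of immune cells, had 12.08, 12.70, 10.35 and 11.71 in carcinoma 1, 2, 3 and GFP, against 12.09, 12.55 and 11.46 in papilloma 1, 2 and GFP. Carcinoma 3 was lowest, and the mean difference was -0.32 (SE 0.56), or 0.13 without carcinoma 3. In the same array the macrophage and monocyte markers averaged 5.29, the lowest of the 7 arrays. Fibroblast, granulocyte, and Langerhans and dendritic cell markers were also lowest there, at 5.81, 5.53 and 5.40. Ctss, a cathepsin of antigen-presenting cells, had 4.63 there against 7.27 to 11.09 elsewhere. The next-lowest macrophage and monocyte mean, 5.54, was in papilloma 2, where Ctsc was 12.55. The highest means of these markers, 7.58 and 7.31, were in carcinoma GFP and papilloma GFP, where Ctsc was 11.71 and 11.46. The part of the markers and of Ctss in the Ctsc level was not tested.

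Ctsh, an aminopeptidase, had 9.64, 9.43, 9.01 and 8.93 in carcinoma 1, 2, 3 and GFP, against 10.20, 8.94 and 8.18 in papilloma 1, 2 and GFP. The papilloma arrays alone spanned more than all carcinoma arrays, and the difference was 0.15 (SE 0.47). Ctsz, a carboxypeptidase also called cathepsin X, had 11.01 in carcinoma 1 and 9.78 in carcinoma GFP but 8.22 and 8.19 in carcinoma 2 and 3, against 9.20, 8.71 and 9.003 in papilloma 1, 2 and GFP. The carcinoma arrays thus lay on both sides of the papilloma arrays, with an SD of 1.36 over the carcinoma and 0.24 over the papilloma arrays, and the difference of 0.33 (SE 0.70) became -0.24 without carcinoma 1. The other Ctsz probe sets, 1417870_x_at and 1417869_s_at, also were highest in carcinoma 1, at 9.64 and 9.43, and lowest in carcinoma 3, at 6.84 and 6.42. In carcinoma 1 the macrophage and monocyte markers averaged 6.48, the highest of the untagged arrays. They averaged 6.14 in carcinoma 2, where Ctsz was 8.22. In carcinoma GFP and papilloma GFP they averaged 7.58 and 7.31, where Ctsz was lower than in carcinoma 1. The part of these markers in the Ctsz level was not tested.

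The cathepsins of other catalytic types also overlapped between the tumour types. Ctsa, which also protects lysosomal sialidase and galactosidase, had 9.27, 9.28, 9.17 and 10.23 in carcinoma 1, 2, 3 and GFP, against 9.48, 8.94 and 10.03 in papilloma 1, 2 and GFP, a difference of 0.00 (SE 0.36). In both tumour types its highest array was the GFP array. Ctsd, the main aspartic protease of lysosomes, had 12.22, 11.81, 11.29 and 11.39 in carcinoma 1, 2, 3 and GFP, against 12.03, 11.48 and 10.90 in papilloma 1, 2 and GFP, a difference of 0.21 (SE 0.34). Among the untagged arrays Ctsd differed by 0.02.

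Of the inhibitors, Cst3, or cystatin C, a secreted inhibitor made by most tissues, came closest after Ctsl to separating the tumour types, and in the opposite direction. It had 10.86, 11.56 and 11.37 in carcinoma 1, 2 and 3, against 11.75 and 11.92 in papilloma 1 and 2, so the untagged arrays did not overlap. The share of all genes with the untagged carcinoma arrays all below was not counted, so this does not mark Cst3 out. With carcinoma GFP at 11.90 and papilloma GFP at 11.84 the groups overlapped by 0.15. Carcinoma cells averaged 11.42 ± 0.43 and papilloma cells 11.84 ± 0.08 (SD over 4 and 3 arrays), which is -0.41 (SE 0.26) overall and 0.06 within the GFP pair. Cst6, or cystatin M/E, had 7.10, 6.89, 5.15 and 5.52 in carcinoma 1, 2, 3 and GFP, against 6.16, 6.82 and 6.02 in papilloma 1, 2 and GFP. Its mean of 6.24 lay below the median gene, 6.64, the only one of the 10 members to do so, and the difference was -0.17 (SE 0.54). Cstb, the cytosolic cystatin B, had 12.62, 12.62, 12.65 and 11.84 in carcinoma 1, 2, 3 and GFP, against 12.55, 12.84 and 11.95 in papilloma 1, 2 and GFP. The untagged arrays of Cstb lay within 0.29 of each other, the narrowest span of the 10 members, and the tumour types differed by -0.02 (SE 0.30).

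Of the 10 members, 5 had a higher and 5 a lower carcinoma mean, with a median difference of -0.01, while 46.9% of all genes had a higher carcinoma mean and the median of all genes was -0.02. Within the GFP pair, 1 array of each type, carcinoma was higher for 8 members and lower for Cst6 and Cstb. Among the untagged arrays the difference was -0.61 for Ctsc, -0.21 for Ctsh, 0.18 for Ctsz, 0.03 for Ctsa, -0.11 for Cst6 and -0.06 for Cstb. Within the GFP pair these members gave 0.25, 0.75, 0.78, 0.21, -0.50 and -0.11 in the same order. For 4 members, Ctsb, Ctsc, Ctsh and Cst3, the GFP pair and the untagged arrays had opposite signs. The shares of all genes were not counted for this or for the GFP pair alone, so neither count marks the members as a set. Leaving out single arrays or changing the processing turned the sign of 8 members at least once, and left Ctsl between 0.24 and 0.80 and Cst3 between -0.57 and -0.22.

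**Figure D2:**
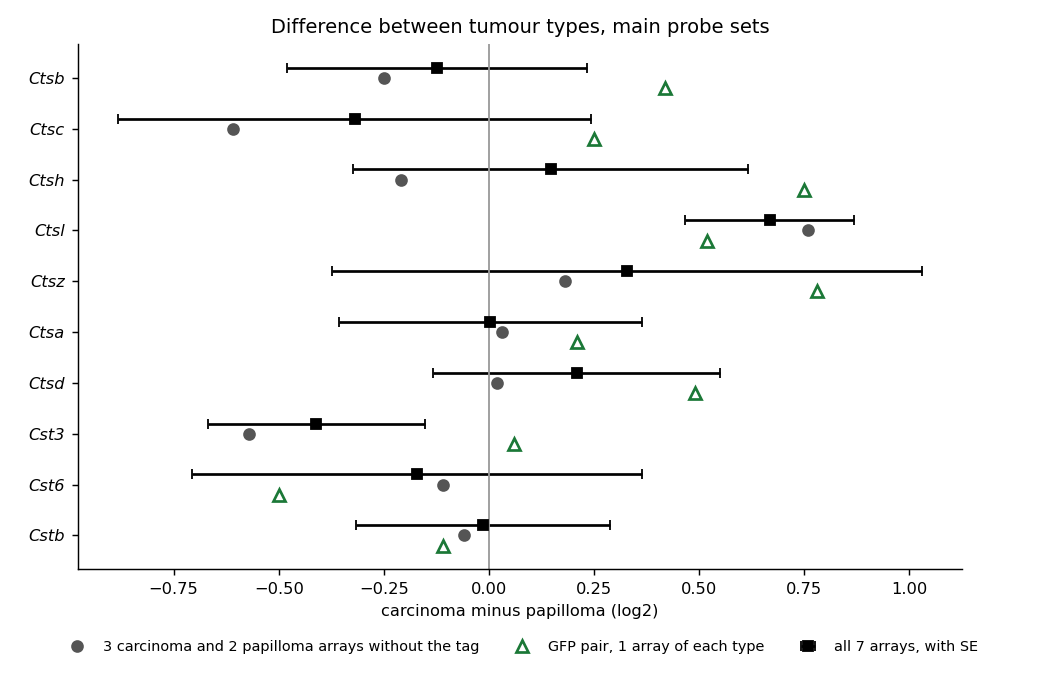
Carcinoma minus papilloma (log2, x axis) for the main probe set of each gene, from all 7 arrays with its SE (squares), from the untagged arrays (circles) and from the GFP pair (triangles). Ctsl is above 0 in all 3, at 0.67, 0.76 and 0.52, and Cst3 is at -0.41, -0.57 and 0.06.

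The comparison of the GFP arrays with the untagged arrays took no part in choosing the members and was tested over all 18193 genes, with tumour type as a covariate. Ctsa and Ctsb were higher and Cstb was lower in the GFP arrays, and for the other 7 members limma's adjusted p was above the threshold of 0.05. Over all genes 11.9% passed as higher and 7.93% as lower, 19.8% together, against 2 and 1 of the 10 members, so the members' count is near that of the array as a whole. Higher calls were 60% of all calls, but 41.9% once each array was centred on its median and 48.6% after a further quantile normalization. Ctsa averaged 10.13 in the GFP arrays (n = 2) and 9.23 ± 0.20 in the untagged arrays (SD, n = 5), and differed by 0.91 (SE 0.20, limma adjusted p = 0.0203). Ctsb averaged 12.47 in the GFP arrays (n = 2) and 11.60 ± 0.20 in the untagged arrays (SD, n = 5), and differed by 0.87 (SE 0.22, limma adjusted p = 0.0328). For both genes each GFP array lay above every untagged array, as did 21% of all genes. Cstb averaged 11.90 in the GFP arrays (n = 2) and 12.66 ± 0.11 in the untagged arrays (SD, n = 5), and differed by -0.77 (SE 0.16, limma adjusted p = 0.0185), and each GFP array lay below every untagged array, as for 19.9% of all genes.

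These 3 calls were lost without single arrays, while most of the differences kept about their size. Without carcinoma GFP, papilloma GFP or carcinoma 2, the adjusted p was 0.248, 0.118 and 0.0513 for Ctsa, 0.425, 0.0568 and 0.0675 for Ctsb and 0.217, 0.136 and 0.0508 for Cstb. The Ctsb call also ended without carcinoma 1 (limma adjusted p = 0.0696) and without papilloma 1 (0.0516). Without carcinoma GFP, papilloma GFP or carcinoma 2 the difference was 0.81, 0.99 and 0.92 for Ctsa, 0.51, 1.18 and 0.89 for Ctsb and -0.74, -0.79 and -0.77 for Cstb. Where a single GFP array was left it was assumed to vary like the others.

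The members that did not pass had differences on either side of 0. Ctsl averaged 11.72 in the GFP arrays (n = 2) and 11.51 ± 0.46 in the untagged arrays (SD, n = 5), and differed by 0.28 (SE 0.20, limma adjusted p = 0.385). Ctsh averaged 8.56 in the GFP arrays (n = 2) and 9.44 ± 0.51 in the untagged arrays (SD, n = 5), and its GFP arrays lay narrowly below every untagged array (difference -0.88, SE 0.40, limma adjusted p = 0.185). Ctsd and Cst6 had differences of -0.61 (SE 0.30) and -0.68 (SE 0.54), Ctsc of -0.40 (SE 0.61), Ctsz of 0.36 (SE 0.77) and Cst3 of 0.34 (SE 0.25), with limma adjusted p between 0.221 and 0.793. Ctsd thus had a lower GFP mean where Ctsa was higher, without passing the test. The part of the CACGTG letters in these differences was not tested.

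Probe sets of the same member often disagreed in this comparison. Of 7 members with several probe sets, 3 (Ctsa, Ctsb and Ctsl) had differences of both signs. The second probe set of Cstb, 1422507_at, had 8.55 (carcinoma) and 8.94 (papilloma) in the GFP arrays, where the untagged arrays had 11.62 to 12.11, and differed by -3.22 (SE 0.19, limma adjusted p = 0.000178 over all probe sets). This is far beyond the -0.77 of the main probe set, although the untagged arrays spanned only 0.29 on the main and 0.49 on the second probe set. For Ctsc, 1437939_s_at had 6.10 (carcinoma) and 5.87 (papilloma) in the GFP arrays, where the untagged arrays had 7.11 to 9.73, and differed by -2.85 (SE 0.63, limma adjusted p = 0.0269), whereas its main probe set gave -0.40. The dim Ctsc probe set 1446834_at gave -1.36 (SE 0.74, limma adjusted p = 0.284).

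Ctsb had 5 probe sets, with differences of 0.87 on the main probe set 1417490_at, 1.56 on 1417491_at, 1.08 on 1417492_at and 0.73 on 1444987_at, but -0.49 on 1448732_at. Of the 5, the main one alone passed the threshold over all probe sets. The second Ctsa probe set, 1458466_at, which was dim, gave -0.54 (SE 0.45, limma adjusted p = 0.49), so the mean of both Ctsa probe sets differed by only 0.19 (limma adjusted p = 0.589 over all genes). Over all 22 member probe sets, 2 passed as higher and 3 as lower, where 9.15% and 6.85% of all probe sets did. The Gapdh 3' minus 5' difference of 3.19 in the GFP arrays moved with these results, and the positions of the probe sets in the transcripts were not used here. The part of RNA length in the disagreement was not tested.

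**Figure D3:**
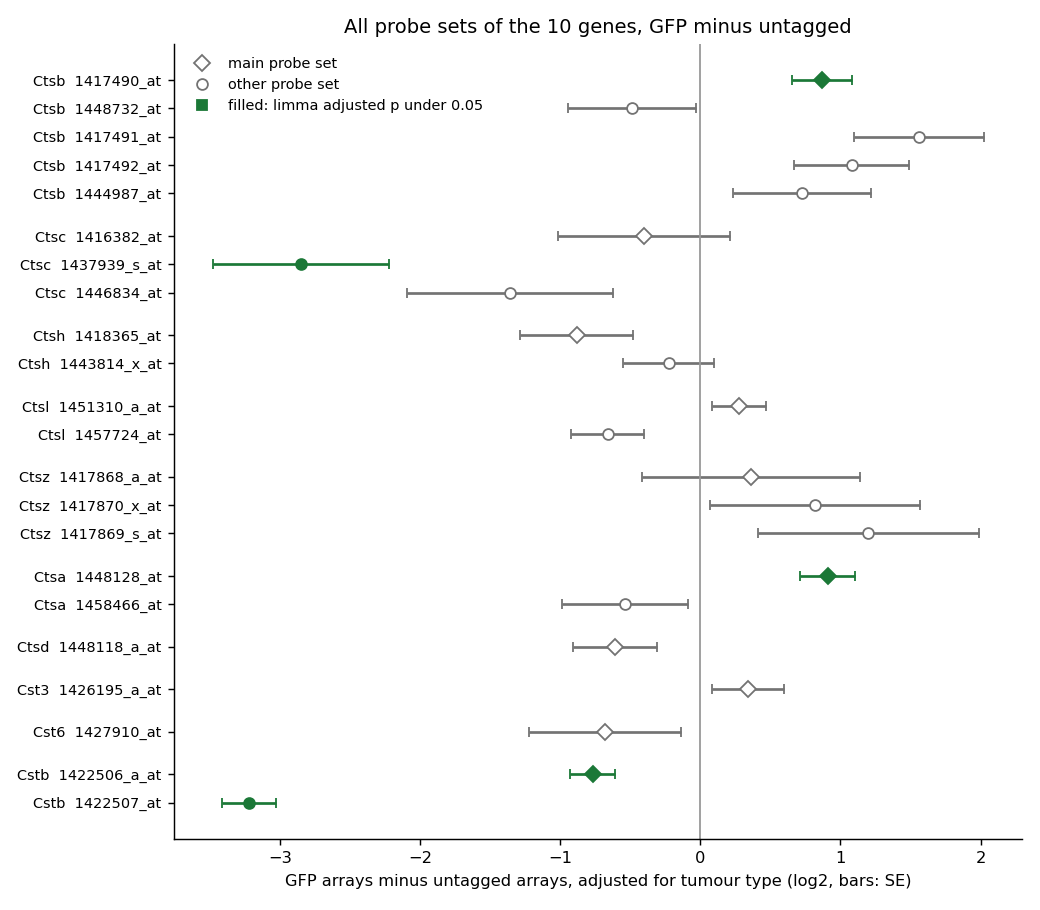
GFP arrays minus untagged arrays, adjusted for tumour type (log2 with SE, x axis), for all 22 probe sets of the 10 genes. Diamonds are main probe sets, circles the others, and filled points passed an adjusted p of 0.05 over all probe sets. The 2 probe sets of Cstb lie at -0.77 and -3.22, and those of Ctsc between -2.85 and -0.40.

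Other cathepsins reached larger differences than the members. Among 15 other measured cathepsins, 4 (26.7%) were higher and 1 (6.67%) lower in the GFP arrays, where 11.9% and 7.93% of all genes were. Their median was 0.10 beside -0.05 for all genes, and 10 of the 15 were dimmer than the median gene. Ctsk, the collagen-degrading cathepsin of osteoclasts and fibroblasts, had 11.46 (carcinoma) and 10.57 (papilloma) in the GFP arrays, where the untagged arrays had 5.79 to 6.69, and differed by 4.78 (SE 0.35, limma adjusted p = 0.000315). Ctss had 11.09 and 10.55 in the GFP arrays, against 4.63 to 8.28 in the untagged arrays, and differed by 3.71 (SE 0.94, limma adjusted p = 0.0354). Ctso differed by 2.28 (SE 0.26, limma adjusted p = 0.00172) and the dimmer Ctsw, a cathepsin of cytotoxic lymphocytes, by 1.40 (SE 0.36, limma adjusted p = 0.0367). Ctse, an aspartic protease of epithelia and immune cells, was lower, with 5.91 and 4.55 in the GFP arrays, against 7.08 to 9.21 in the untagged arrays (difference -3.06, SE 0.66, limma adjusted p = 0.0198).

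Of 17 measured cystatins and other cathepsin inhibitors outside the 10, 2 (11.8%) were higher and 2 (11.8%) lower in the GFP arrays. Their median was -0.24, and of all genes 11.9% were higher and 7.93% lower. Ctla2a, a mouse inhibitor that resembles a cathepsin propeptide, differed by 5.85 (SE 0.60, limma adjusted p = 0.00117), and its relative Ctla2b by 5.42. Csta1, a stefin A, was lower by -2.44 (SE 0.56, limma adjusted p = 0.0254), and Fetub, of the fetuin branch of the cystatin family, by -1.93. The mouse stefin A genes are near-identical copies, so their probe sets may share signal. Endothelial, fibroblast and macrophage markers passed as higher in the GFP arrays for 15 of 15, 11 of 14 and 9 of 14 measured genes, and keratinocyte markers as lower for 8 of 13. All these lists moved with Ctsk, Ctss, Ctso, Ctla2a, Ctse and Csta1, and their part in those differences, or in those of Ctsa, Ctsb and Cstb, was not tested.

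Lysosomal genes outside the protease family were also counted. Of 36 hydrolases and activators, 14 (38.9%) were higher and 1 (2.78%) lower in the GFP arrays, with a median of 0.78. Of all genes 11.9% were higher and 7.93% lower. Lipa, the acid lipase, differed by 3.31 (SE 0.27, limma adjusted p = 0.000469) and Hexa, a hexosaminidase subunit, by 3.06 (SE 0.28, limma adjusted p = 0.000693), and Arsa and Pla2g15, a sulfatase and a phospholipase, by 2.38 and 2.45. The 1 lower gene was the acid phosphatase Acp5, at -2.27 (SE 0.33, limma adjusted p = 0.00472). Of 28 membrane and proton pump genes, 8 (28.6%) were higher and 2 (7.14%) lower, with a median of 0.27. Ostm1 at 1.41 and Slc17a5, a sialic acid exporter, at 1.28 were among the higher. The lower ones were the pump subunit Atp6v1f at -1.40 and Tmem192 at -0.94.

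Of 24 genes of lysosome biogenesis and enzyme sorting, 5 (20.8%) were higher and 1 (4.17%) lower, beside 11.9% and 7.93% of all genes. Their median was 0.23. Grn, the progranulin gene, differed by 1.54 (SE 0.26, limma adjusted p = 0.00795) and the sorting receptor Sort1 by 1.12 (SE 0.26, limma adjusted p = 0.0255), and Tfec, Vps33a and Rab7 also passed as higher. The mannose 6-phosphate receptor M6pr was lower, at -0.87 (SE 0.17, limma adjusted p = 0.014), while Gnptab, which makes the mannose 6-phosphate tag, had -0.97 (SE 0.37) and did not pass. Of 22 cornification genes 1 (4.55%), Lor, passed as higher (1.94, SE 0.50, limma adjusted p = 0.037) and 0 as lower, with a median of -0.09.

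**Figure D4:**
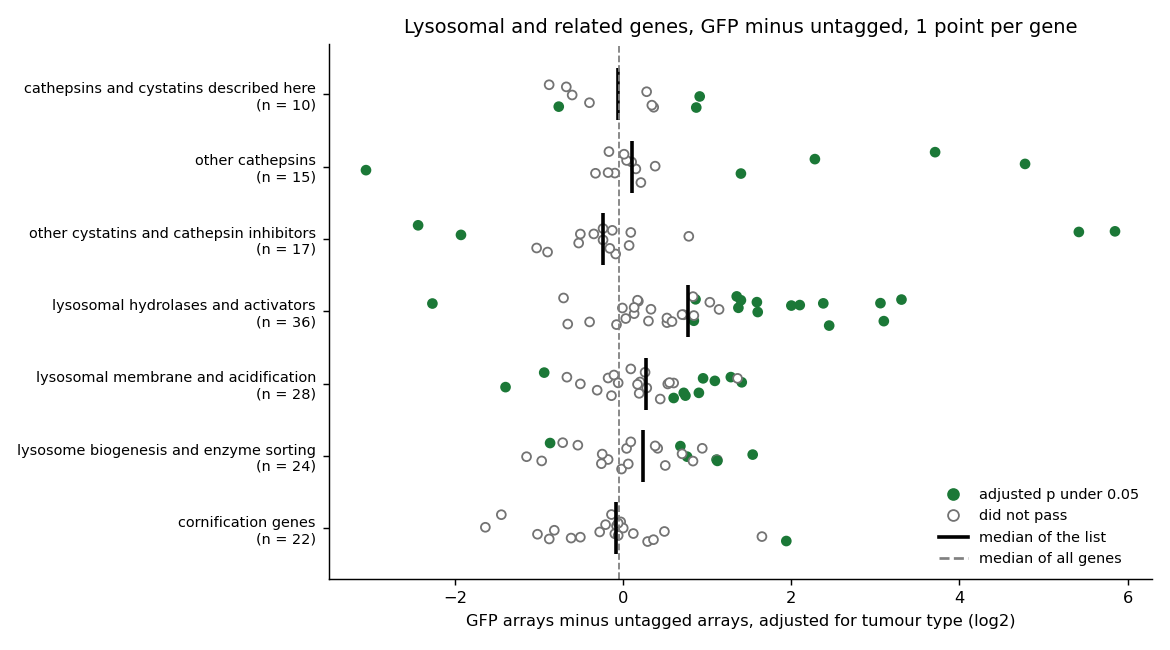
GFP arrays minus untagged arrays, adjusted for tumour type (log2, x axis), with 1 point per gene for the 10 members and 6 related lists. Filled points passed an adjusted p of 0.05, bars are list medians and the dashed line is the median of all genes, -0.05. The members lie between -0.88 and 0.91, and the other cathepsins between -3.06 and 4.78.

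Between the tumour types the same lists had medians close to that of all genes, -0.02, again as a description. Medians were -0.07 for the other cathepsins, -0.06 for the other inhibitors, 0.01 for the hydrolases, 0.05 for the membrane and pump genes, 0.02 for biogenesis and sorting and 0.18 for cornification. Gnptab had the largest carcinoma excess of the sorting genes, 0.88 (SE 0.47). The adaptor Gga2 followed at 0.59 (SE 0.33), and the receptors M6pr and Igf2r at 0.43 (SE 0.34) and 0.40 (SE 0.36). They are the largest of 24 genes, of which 12 had a higher and 12 a lower carcinoma mean. Gga3 and Sort1 of the same list had 0.16 (SE 0.50) and -0.23 (SE 0.45). Of the hydrolases Fuca2, a fucosidase, had 8.52, 8.34, 8.70 and 8.48 in carcinoma 1, 2, 3 and GFP. It had 8.22, 7.90 and 8.07 in papilloma 1, 2 and GFP, so its carcinoma arrays all lay above, as for 0.506% of all genes. The other cathepsins also held 1 such gene, the dim Cts8 (mean level 4.04, difference 0.17, SE 0.14). The cornification genes held 1 wholly above, the dim Rptn (mean level 4.38, difference 0.23, SE 0.14). They also held 1 wholly below, as for 0.912% of all genes. Krt1 and Krt10, keratins of the differentiating layers in which Cst6 acts, differed by -2.53 (SE 1.08) and -1.38 (SE 0.66), while Ivl and Tgm1, also of these layers, differed by 1.07 (SE 0.69) and 1.06 (SE 0.94).

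The genes whose levels followed Ctsl most closely were listed as a description, since the arrays fall into GFP and untagged clusters, each under 6 arrays, and a correlation over so few arrays was not tested. Over the 7 arrays the highest Pearson correlations with Ctsl among genes brighter than the median gene belonged to Slit2 (0.965), Basp1 (0.934), Nr2f2 (0.915), Taf4b (0.909) and Pcdhb17 (0.884). Over the 5 untagged arrays they belonged to Pcbp1 (0.988), Maged1 (0.986), Taf4b (0.982), Wdr73 (0.982) and Prps2 (0.979). Taf4b was in both lists. Ctsl was chosen because it separated the tumour types, so genes that also separate them rank high here. The 5 genes of the 7-array list were all higher in carcinoma, by 2.34 (Slit2), 0.70 (Basp1), 1.22 (Nr2f2), 0.41 (Taf4b) and 0.86 (Pcdhb17). Those of the untagged list were higher by 0.17 (Pcbp1) to 0.54 (Prps2) over all 7 arrays. Whether any of them follows Ctsl apart from tumour type was not tested.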

How the data were processed

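Per the labels' protocols, RNA of sorted cells was amplified and hybridised to Affymetrix mouse PM strip arrays, which the authors then normalized by RMA. RMA and affy are also the names in the submitters' processing notes. Not given in the sources used here are their versions, the chip definition and the set of arrays on which RMA was run. Deposited values are log2 levels of 45101 probe sets, from 2.72 to 14.51, and this scale was read from the values. The number of arrays limits their precision.

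Gene symbols came from the platform annotation of the standard design of this array, and all 10 members matched the RefSeq table of GRCm38.p6 by gene identifier. Control probe sets (64) and those with several symbols (932) or without a name (9160) were dropped, with no filter on brightness. Each gene was represented by its brightest single-symbol probe set over the 7 arrays.

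Groups came from the titles. limma 3.58.1 in R 4.3.3 (lmFit, eBayes) was fitted over all 18193 genes, for carcinoma minus papilloma without covariates and for GFP minus untagged with tumour type as a covariate, with Benjamini-Hochberg adjustment over all genes and a threshold of 0.05. SEs are limma's moderated ones. A second fit over all 34945 single-symbol probe sets was added after seeing the data. The limma procedure was first run on simulated data, with independent noise of the same spread in every array of a gene. Such data lack the marker and RNA length differences of the GFP arrays, so they do not bear on the calls made here. Alternatives were other choices of probe set, a filter on dim genes, array weights, centring, a further quantile normalization, leaving out each array, and, for the tumour types, the tag as covariate, the untagged arrays alone and the replicate label as a block.

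Replicate labels 1, 2 and GFP occur in both tumour types. Deviations from the group means correlated at 0.476, 0.194 and 0.861 for the same-labelled arrays, all above the limit of 0.1 that counts as pairing here, but differently numbered arrays reached 0.683. The replicate block is given as an alternative only.

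The members and lists were chosen with earlier results of these data known. The rule for named genes took all members with every probe set, up to 4 genes per other list with the largest difference in each comparison among genes brighter than the median gene, and the 5 genes most correlated with Ctsl over all and over the untagged arrays. Not all of the 4 genes per list are printed. Ctsw, Cts8, Ctla2b, Fetub, Acp5, Tmem192, Tfec, Vps33a, Rab7 and Rptn are not covered by this rule. They are named with their values already known, to list the genes behind small counts. Plots were made in Python 3.11.15 (matplotlib 3.10.9).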

Additional observations from a re-analysis of the deposited data

Results flagged for a closer look

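For 44 groups of values (22 probe sets, among the 4 carcinoma arrays and among the 5 untagged arrays) the gap of the highest or lowest array to its neighbour was compared with the range of the group. Chance flags about 1 group in 20, and these groups share arrays. In 4 groups the gap was beyond Dixon's critical ratio. Among the carcinoma arrays the GFP array stood apart on both Cstb probe sets, at 11.84 on 1422506_a_at (ratio 0.96) and 8.55 on 1422507_at (ratio 0.862), and on the main Ctsa probe set, at 10.23 (ratio 0.894). Among the untagged arrays carcinoma 3 stood apart on the main Ctsc probe set, at 10.35 (ratio 0.734).

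On the second Ctsh probe set, 1443814_x_at, carcinoma GFP lay above all untagged carcinoma arrays, by 0.19 on average, and papilloma GFP lay below both untagged papilloma arrays, by -0.69 on average. This difference between the tumour types was not tested.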

How the results depend on the processing

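The carcinoma minus papilloma comparison called 0 genes in limma under all 17 alternatives, the replicate block (0 genes) included. The Ctsl difference of 0.67 was 0.78 with the replicate block, lay between 0.59 and 0.80 when single arrays were left out, and was 0.24 as the mean of its probe sets, of which 1 is dim. In the GFP comparison the count of genes higher, 2159, was 3520 with array weights, 1229 among genes at or above the median gene, which are fewer to begin with, and 637 (without carcinoma GFP) to 2207 when single arrays were left out (1121 without papilloma GFP). The count lower, 1442, was 3299 with array weights, 2442 after centring, 2257 after a further quantile normalization, 2395 over all probe sets, which are more numerous, and 224 (without carcinoma GFP) to 1748 when single arrays were left out, with 341 without papilloma GFP and 946 without carcinoma 2. The higher share of calls, 60%, was 41.9% after centring, which moved the median of all genes from -0.05 to -0.29, and 48.6% after quantile normalization. The cause was not tested. After centring Ctsb no longer passed (0.64, limma adjusted p = 0.0568), and Ctsa and Cstb did. With array weights Ctsh (limma adjusted p = 0.0465) and Ctsd (0.0438) also passed as lower. The GFP difference turned to -0.19 for Ctsl as the mean of its probe sets and to 0.003 for Ctsc without papilloma GFP (-0.86 without carcinoma GFP). The mean of all probe sets ended the calls of Ctsa (0.19, limma adjusted p = 0.589) and Ctsb (0.75, 0.07). Over the alternatives the adjusted p ranged from 0.00226 to 0.589 for Ctsa, 0.00426 to 0.425 for Ctsb and 0.000267 to 0.217 for Cstb.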

Other observations

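Carcinoma 1, the array highest in Ctsz, was lowest in Stfa3 and Stfa2l1 but not in Csta1, all of the stefin A cluster. Csta1 had 9.50 in carcinoma 1, against 7.84 in carcinoma GFP and 9.02 in papilloma GFP. Stfa3, a cysteine protease inhibitor, had 7.44 in carcinoma 1, 12.11, 13.12 and 10.48 in carcinoma 2, 3 and GFP, and 12.25, 13.10 and 11.22 in papilloma 1, 2 and GFP. Stfa2l1 had 4.14 in carcinoma 1 and 6.49 to 8.38 in the other arrays. Krt1 was also lowest in carcinoma 1, at 5.08 against 7.20 to 11.09 elsewhere. Other cornification genes did not share this. Tgm1, Tgm3 and Spink5 were highest in carcinoma 1, at 10.46, 9.93 and 9.69, and Krt10 was lowest in carcinoma 3, at 8.66. These genes were set beside each other after their values were seen.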
